A study of Mus musculus with 4 samples.

Results

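The genes described here are 10 direct targets of the coactivators YAP and TAZ, namely Ccn1, Ccn2, Ankrd1, Axl, Crim1, Myof, Nt5e, F3, Ptpn14 and Fjx1. They were taken by symbol from a table of 54532 genes, and all 10 were found and had enough counts to be tested. The 10 belong to a published signature of 22 YAP/TAZ target genes that was drawn up in human tumours. The libraries came from cranial neural tubes microdissected from mouse embryos at embryonic day 10.5. The 2 DCKO embryos were Lats1 flox/flox, Lats2 flox/flox and carried E2f1 Tg(Wnt1-cre)2Sor/+, and the 2 Control embryos lacked that Cre transgene. The floxed alleles of the Control embryos are not given in the labels. Wnt1-driven Cre is active in the dorsal neural tube and the neural crest, so only some of the dissected cells could lose Lats1 and Lats2. The 10 genes were selected on their DCKO and Control values in these libraries, so their difference between the groups is a description and is not tested here.

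YAP and TAZ (the product of Wwtr1) bind no DNA themselves. They enter the nucleus when the LATS1 and LATS2 kinases of the Hippo pathway leave them unphosphorylated, and they are carried to DNA by the TEAD transcription factors, whose binding sites hold the core CATTCC. The targets serve different ends: CCN1 and CCN2 are secreted matrix proteins, ANKRD1 is a nuclear and sarcomeric protein, F3, AXL, NT5E, MYOF and CRIM1 sit at the cell membrane, PTPN14 holds YAP in the cytoplasm, and FJX1 is a Golgi kinase of the Fat and Dachsous polarity system.

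The promoter windows of 8 of the 10 genes were found in RefSeq on GRCm38.p6, each 250 bases before to 50 bases after the start. The windows of Ccn1 and Ankrd1 are shown because these genes are among the targets most used as YAP readouts, and that of Ptpn14 because its product acts back on YAP. Capitals mark the TEAD core, read as CATTCC on the gene's strand or GGAATG where it lies on the other. Each window is printed along its gene's strand, and the Ccn1 window is chr3:145649936-145650235 (minus strand), the Ankrd1 window chr19:36119795-36120094 (minus strand) and the Ptpn14 window chr1:189728018-189728317 (plus strand).
Ccn1: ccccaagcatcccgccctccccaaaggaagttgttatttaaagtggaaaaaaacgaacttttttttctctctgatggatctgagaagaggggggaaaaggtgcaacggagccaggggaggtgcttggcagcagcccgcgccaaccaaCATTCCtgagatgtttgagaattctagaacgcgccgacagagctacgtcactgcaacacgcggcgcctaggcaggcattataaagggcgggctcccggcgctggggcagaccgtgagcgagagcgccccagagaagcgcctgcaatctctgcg
Ankrd1: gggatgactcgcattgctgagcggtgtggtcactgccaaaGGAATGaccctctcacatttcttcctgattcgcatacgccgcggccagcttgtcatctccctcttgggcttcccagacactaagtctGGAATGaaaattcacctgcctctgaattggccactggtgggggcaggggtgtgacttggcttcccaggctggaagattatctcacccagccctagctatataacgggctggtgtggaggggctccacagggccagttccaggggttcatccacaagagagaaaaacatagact
Ptpn14: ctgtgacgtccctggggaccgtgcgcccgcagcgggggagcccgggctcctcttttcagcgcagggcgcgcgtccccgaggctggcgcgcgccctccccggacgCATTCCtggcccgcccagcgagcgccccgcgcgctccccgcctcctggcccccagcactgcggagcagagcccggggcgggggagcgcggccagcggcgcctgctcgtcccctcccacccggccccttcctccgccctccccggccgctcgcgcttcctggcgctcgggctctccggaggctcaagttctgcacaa

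The core CATTCC, on either strand, was present in 5 of the 8 windows, those of Ccn1, Ankrd1, Axl, Crim1 and Ptpn14. It was present in 14.7% of the 32851 RefSeq windows of 300 bases. Ankrd1 had 2 copies, which start 210 and 123 bases before the transcription start, and 1.36% of all windows had 2 or more. The single copies of Ccn1, Ptpn14, Crim1 and Axl start 103, 146, 79 and 233 bases before it. The windows of Myof, Nt5e and F3 held no copy. In F3 the AP-1 motif TGANTCA, which reads the same on both strands apart from its central base, occurred 2 times, 146 and 135 bases before the start, and it occurred in 7.81% of all windows. TATAAA on the gene's strand lay 25 bases before the start of Ccn1 (8.32% of all windows), and the CArG box, the site of serum response factor, was in none of the 8 (1.63% of all windows). None of the motif matches in these windows overlapped another. Letters that match a motif do not show that a factor is bound there.

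**Figure D1:**
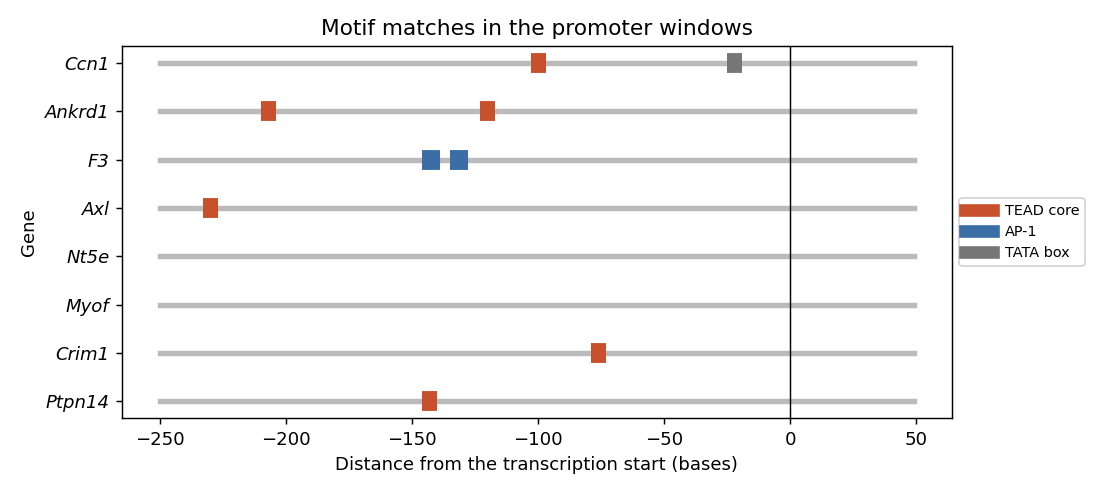
Matches to the TEAD core, AP-1 and TATA motifs (coloured blocks) in the promoter windows of 8 genes (rows), by distance from the transcription start in bases. Of the 8 windows, 5 hold a TEAD core, and that of Ankrd1 holds 2.

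Library totals lay between 41798361 and 55137810 counts. Levels are in CPM (depth-scaled counts, on totals adjusted by TMM, the trimmed mean of M values), with 2 libraries per group. A gene was called where edgeR's quasi-likelihood test over all 19207 tested genes gave a Benjamini-Hochberg adjusted p under 0.05. That test called 8.93% of tested genes higher and 8.11% lower in DCKO. Neither deleted gene passed: Lats1 had 44.2 and 65.6 CPM in Controls against 30.0 and 29.7 in DCKO (log2 fold change -0.88, adjusted p 0.0538 in edgeR), and Lats2 had 26.7 and 13.3 against 21.2 and 35.3, with overlapping groups. Counts of Xist were 10837 and 7786 in Controls against 8 and 22 in DCKO, so embryo sex cannot be told apart from genotype, nor can the presence of the transgene. All 10 target genes are autosomal, but a gene's chromosome does not separate sex from genotype in these libraries.

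Of the 10 target genes, 9 were higher in every DCKO library than in any Control library and 1, Fjx1, was lower. Over all tested genes the share was 33.6% for such a rise and 32.9% for such a fall, 66.4% in all. In edgeR 9 were called higher and 1 lower, beside a background of 8.93% and 8.11%, and nothing is read from these counts because this contrast chose the genes. The calls were 2 higher and 1 lower when Control 1 was left out, 1 and 0 for Control 2, and 9 and 1 for DCKO 1 or DCKO 2. The median log2 fold change over the 10 was 2.21, beside 0.03 over all tested genes. In bulk tissue, fewer cells of a type and less RNA per cell cannot be told apart, and this holds for every gene below.

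**Figure D2:**
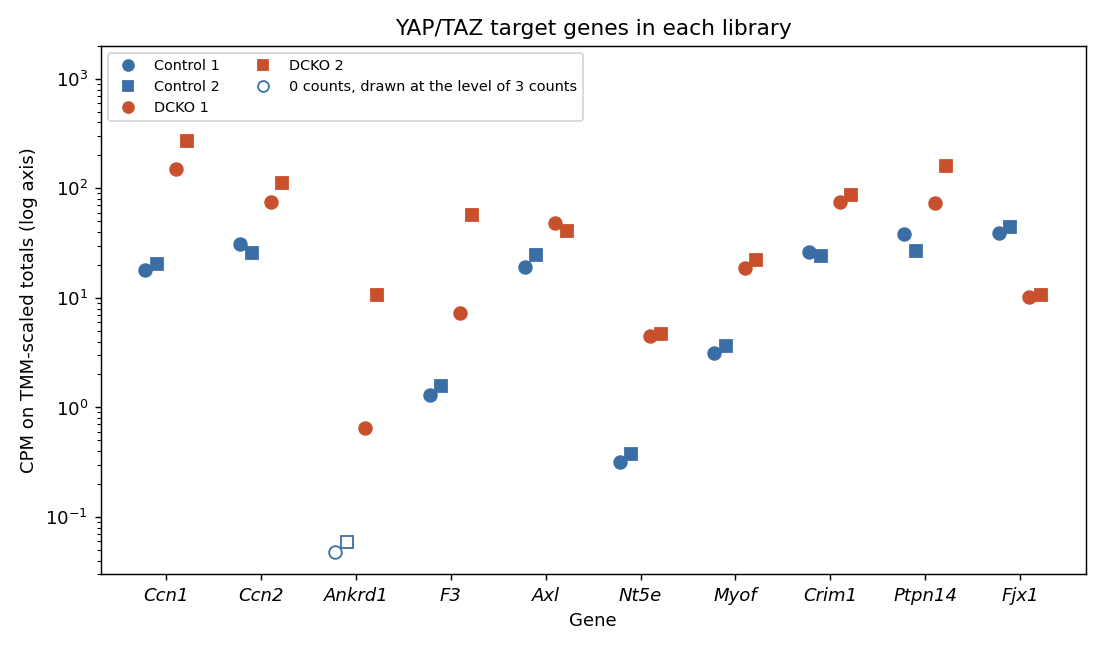
CPM of the 10 genes (log axis) in each of the 4 libraries, Control in blue and DCKO in orange, with open symbols where a library had 0 counts. The DCKO points lie above the Control points for 9 genes and below them for Fjx1, and the DCKO points of Ankrd1 and F3 are the farthest apart.

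Both secreted matrix genes were higher in DCKO, Ccn1 by more than Ccn2. Ccn1 (ENSMUSG00000028195, chromosome 3, 145646976 to 145649981 on GRCm38) encodes an integrin-binding matricellular protein. It had 18.2 and 20.5 CPM in Control 1 and 2 and 151 and 271 in DCKO 1 and 2. Even the lower DCKO library was 7.38 times the higher Control library. Its means were 19.3 ± 1.64 and 211 ± 84.5 CPM (SD, n = 2), a fold of 10.9 and a fitted log2 fold change of 3.45 (SE 0.33). Ccn2 (ENSMUSG00000019997, chromosome 10, 24595442 to 24598683), its paralogue also known as connective tissue growth factor, had 31.3 and 26.0 CPM in Controls against 74.6 and 113 in DCKO. The means were 28.6 ± 3.79 and 93.9 ± 27.2 CPM, a fold of 3.28 and a log2 fold change of 1.71 (SE 0.25). In TPM, a unit scaled to transcript length, Ccn1 was below Ccn2 in Control 1 (16.8 and 25.5) and Control 2 (15.5 and 17.3) and above it in DCKO 1 (98.5 and 43.3) and DCKO 2 (208 and 75.4). The noncoding model Gm15270, on the other strand across Ccn2, had 21 to 39 counts in any library against at least 1314 for Ccn2.

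Ankrd1 (ENSMUSG00000024803, chromosome 19, 36111961 to 36120099), which encodes a transcriptional cofactor induced in stretched muscle, was detected in DCKO alone. It had no count in Control 1 or Control 2, and 26 and 393 counts in DCKO, or 0.650 and 10.6 CPM, so that it passed the filter on low counts through DCKO alone. DCKO 1 thus had few reads of Ankrd1, and DCKO 2 had 16.4 times its level. With Control set to the mean level of 3 counts per library, a floor of 0.0479 and 0.0593 CPM, Ankrd1 was at least 105-fold higher in DCKO. The same bound was at least 12.1-fold from DCKO 1 and at least 198-fold from DCKO 2, so its size rests on the second library. These floors cover counting error only.

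F3 showed the same imbalance between DCKO libraries. F3 (ENSMUSG00000028128, chromosome 3, 121723537 to 121735048) encodes tissue factor, the membrane receptor that starts coagulation. It had 1.31 and 1.56 CPM in Controls against 7.27 and 57.8 in DCKO, both above Control. The means were 1.44 ± 0.178 and 32.5 ± 35.7 CPM, a fold of 22.7 and a log2 fold change of 4.50 (SE 1.00). Against the Control mean, DCKO 1 was 5.07-fold and DCKO 2 40.3-fold higher, and the fitted log2 fold change was 2.34 without DCKO 2 and 5.33 without DCKO 1.

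The other membrane genes had DCKO libraries close to each other. Nt5e (ENSMUSG00000032420, chromosome 9, 88327197 to 88372092) encodes CD73, the enzyme that turns extracellular AMP into adenosine. It had 0.319 and 0.375 CPM in Controls against 4.52 and 4.68 in DCKO, from 19 or 20 counts per Control library and 173 or 181 per DCKO library. Its means of 0.347 ± 0.0397 and 4.60 ± 0.112 CPM gave a fold of 13.2 and a log2 fold change of 3.72 (SE 0.39). Myof (ENSMUSG00000048612, chromosome 19, 37899036 to 38043577), a ferlin of membrane fusion and repair, had 3.162 and 3.64 CPM in Controls against 18.7 and 22.4 in DCKO. That was a fold of 6.06 and a log2 fold change of 2.60 (SE 0.23). The lower DCKO library was 12.05 times the higher Control library for Nt5e and 5.16 times for Myof.

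Crim1 and Axl had smaller folds. Crim1 (ENSMUSG00000024074, chromosome 17, 78200248 to 78376592) encodes a transmembrane protein with cysteine-rich repeats that binds BMPs. It had 26.2 and 24.1 CPM in Controls against 75.3 and 87.4 in DCKO, a fold of 3.23 and a log2 fold change of 1.69 (SE 0.17). Fez2, which overlaps Crim1 on the other strand, had between 1160 and 1846 counts in each library, and how reads were assigned where they overlap is not given in the sources used here. Axl (ENSMUSG00000002602, chromosome 7, 25757273 to 25788705) encodes a receptor tyrosine kinase whose ligand is GAS6. It had 19.0 and 24.9 CPM in Controls against 48.7 and 40.8 in DCKO, and was the one target gene with DCKO 1 above DCKO 2. Its fold of 2.04 and log2 fold change of 1.03 (SE 0.21) were the smallest of the 10 genes in size. Its lower DCKO library was 1.64 times its higher Control library, and the log2 fold change was 0.68 with library totals as the scale, a scale that moved the median of all genes to -0.32.

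The genes that act on Hippo signalling or polarity moved apart. Ptpn14 (ENSMUSG00000026604, chromosome 1, 189728268 to 189876695) encodes a phosphatase that binds YAP and LATS1. It had 38.6 and 27.0 CPM in Controls against 73.5 and 159 in DCKO. The Control libraries of Ptpn14 were also spread, with Control 2 at 0.700 times Control 1. Its means were 32.8 ± 8.17 and 116 ± 60.5 CPM, a fold of 3.55 and a log2 fold change of 1.83 (SE 0.41), which was 1.16 without DCKO 2. The antisense model Gm26574 inside Ptpn14 had 16 to 22 counts per Control library and 54 to 118 per DCKO library. Fjx1 (ENSMUSG00000075012, chromosome 2, 102449366 to 102452499), a gene of a single exon, was the exception among the 10. It had 39.2 and 44.6 CPM in Controls against 10.2 and 10.7 in DCKO. The means of 41.9 ± 3.81 and 10.5 ± 0.404 CPM made it 4.01-fold lower in DCKO, with a log2 fold change of -2.004 (SE 0.18).

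The authors' deposited table of differential expression held 9 of these genes. Its log2 fold changes were 3.50 for Ccn1, 1.77 for Ccn2, 4.56 for F3, 1.89 for Ptpn14, 1.08 for Axl and -1.95 for Fjx1. The authors' deposited table gave 3.78 for Nt5e, 2.65 for Myof and 1.75 for Crim1. All 9 had the same sign as in the fit used here and came from the same libraries.

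Compared per transcript length, the order of the genes changed between the groups. In TPM, the authors' length-scaled unit, the highest in Control was Fjx1 at 22.6 ± 1.14, followed by Ccn2 at 21.4 ± 5.75 and Ccn1 at 16.2 ± 0.912. Axl, Ptpn14 and Crim1 came next at 8.79, 7.19 and 7.17 TPM, then Myof at 1.42 and F3 at 1.34, while Nt5e had 0.146 and Ankrd1 was listed at 0. Fjx1 did not differ from Ccn2 beyond the spread of their libraries, nor did neighbours among Axl, Ptpn14 and Crim1, nor Myof and F3. In DCKO, Ccn1 led at 154 ± 77.7 TPM, then Ccn2 at 59.3 ± 22.7, Ptpn14 at 29.1, F3 at 27.7, Crim1 at 19.6 and Axl at 17.9. Ptpn14, F3, Crim1 and Axl overlapped with their neighbours in that order. Myof at 5.68, Ankrd1 at 4.91 and Fjx1 at 4.80 TPM overlapped too, and Nt5e was last at 1.74. By mean TPM, Fjx1 had rank 1 in Control and rank 9 in DCKO, and Ccn1 had rank 3 and rank 1. The ranks of Fjx1 did not hold in each library. It was below Ccn2 in Control 1 (23.4 and 25.5 TPM) and above Ankrd1 in DCKO 1 (4.27 and 0.467 TPM).

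**Figure D3:**
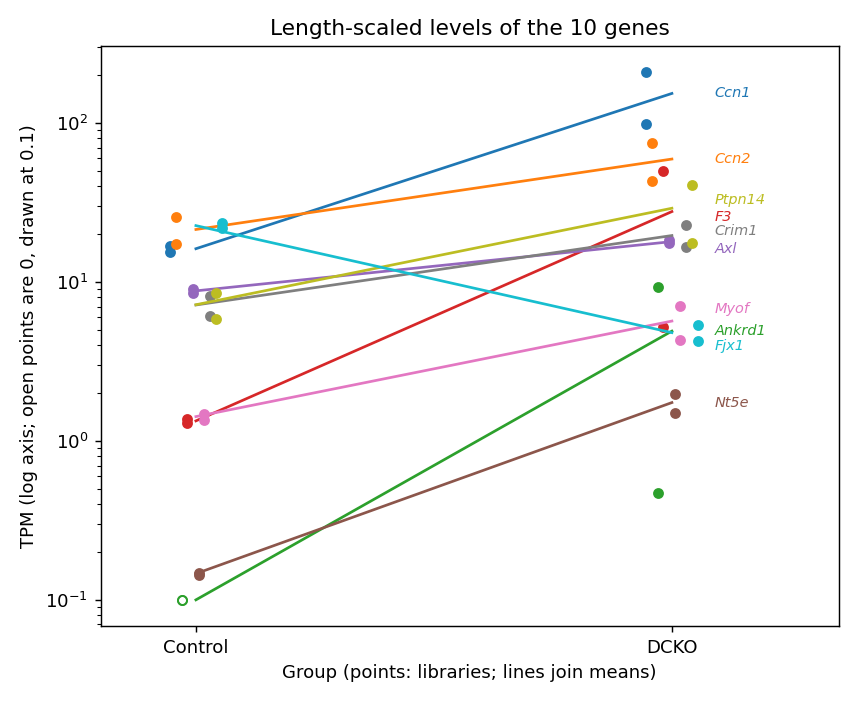
TPM (log axis) of the 10 genes in Control and DCKO. Points are libraries, lines join the group means, and a value of 0 is drawn open at 0.1. Fjx1 falls from 22.6 to 4.80 TPM while the other 9 lines go up, with Ccn1 reaching 154.

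The 2 DCKO embryos differed in the levels of some of these genes. DCKO 2 was above DCKO 1 for 9 of the 10, and by more than 1.5 times for 5 of them, namely Ankrd1 (16.4 times), F3 (7.94), Ptpn14 (2.16), Ccn1 (1.79) and Ccn2 (1.51). The 9 include Fjx1, which was lower in DCKO than in Control. Of the 19207 tested genes, 9346 detected in both DCKO libraries were higher in DCKO 2. The ratio was between 0.837 and 1.197 for Axl, Nt5e, Fjx1, Crim1 and Myof. Over 18506 genes detected in every library, the middle 90% of log2 ratios of DCKO 2 to DCKO 1 ran from -1.37 to 1.28, with a median of 0.00. Ankrd1 at 4.03 and F3 at 2.99 lay above that range, and the other 8 lay inside it. Between the Control libraries the log2 ratios of the 9 genes detected there ran from -0.51 for Ptpn14 to 0.39 for Axl, inside the range of all genes (-0.70 to 1.04). Since each group has 2 libraries, these ratios carry no test.

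**Figure D4:**
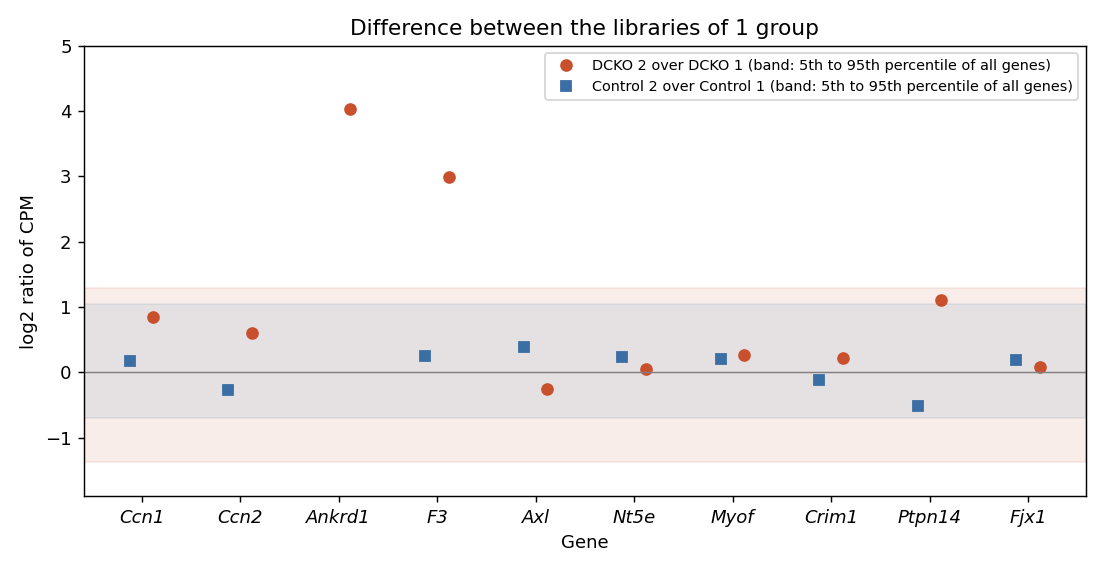
Log2 ratio of CPM between the libraries of each group for the 10 genes, DCKO 2 over DCKO 1 as orange circles and Control 2 over Control 1 as blue squares. Bands mark the 5th to 95th percentile over all genes. Ankrd1 and F3 lie above the DCKO band, and Ankrd1 has no Control point because it had 0 counts there.

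Levels of cell type markers also differed between the DCKO libraries. Summed over all 16 cranial mesenchyme markers, DCKO 1 had 4646 CPM and DCKO 2 had 2187, against 704 and 745 in Control. The collagen genes Col3a1, Col1a2 and Col1a1 made up 3992 and 1638 CPM of the DCKO sums, while the other 13 summed to 654 and 549 in DCKO and 190 and 189 in Control, and 8 of the 16 were higher in DCKO 2 than in DCKO 1. The 12 endothelial markers summed to 902 and 535 CPM in DCKO and 197 and 186 in Control, with Kdr, Cdh5 and Flt1 at the highest CPM. The 13 surface ectoderm markers had the higher sum in DCKO 2, with 348 and 476 CPM against 16.0 and 18.3 in Control, and 8 of the 13 were higher in DCKO 2. The 10 mural cell markers had 573 and 794 CPM in DCKO against 231 and 222 in Control, with 4 of the 10 higher in DCKO 2. Acta2 and Tagln, contractile genes that are also known targets of serum response factor, made up 246 and 524 CPM of the mural sums in DCKO. They made up 13.6 and 11.6 CPM in Control. The other 8 summed to 327 and 270 CPM in DCKO and 217 and 210 in Control. Of these, Notch3 was lower in DCKO, with 176 and 171 CPM in Controls against 104 and 119 (adjusted p 0.0481 in edgeR). The defining basal keratins Krt5 and Krt14 were at 0 in Control, with 36 and 0 counts for Krt5 and 0 and 13 for Krt14 in DCKO. Neural crest markers summed to 145 and 194 CPM in DCKO and 78.7 and 71.8 in Control. In edgeR, 12 of 16 mesenchyme, 11 of 13 surface ectoderm (2 under the filter on low counts), 8 of 12 endothelial, 6 of 10 mural (1 under the filter) and 2 of 6 neural crest markers were called higher, and 1 mural marker lower. Without Control 1 these counts of higher markers were 1, 8, 1, 3 and 0, and without Control 2 they were 1, 6, 0, 1 and 0. When DCKO 1 was left out, 5 neural crest markers were higher, and 9 mural markers when DCKO 2 was left out. The part of these cells in the levels of the 10 target genes was not tested.

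Neural markers were lower in DCKO, as was Fjx1. Sox1, Sox2, Sox3, Pax6, Nes, Hes5, Fabp7 and Msi1, genes of neural progenitors, summed to 2285 and 2568 CPM in Controls against 840 and 696 in DCKO, and 7 of the 8 were called lower in edgeR (3 without Control 1 and 3 without Control 2). Neuronal markers summed to 943 and 1203 CPM in Controls against 559 and 246 in DCKO, with 3 of 8 called lower. Leaving out Control 1 or Control 2 left 0 neuronal markers called lower in edgeR, where 6 had an unadjusted p under 0.05 with all libraries, and leaving out DCKO 1 or DCKO 2 gave 7 and 5. Erythroid markers summed to 2550 and 3784 CPM in Controls against 899 and 657 in DCKO, with 7 of 10 lower (5 without Control 1, 1 without Control 2). Of 8 macrophage markers, 0 passed in edgeR, 0 had an unadjusted p under 0.05 and 0 passed in DESeq2 or limma-voom, but 6 were called higher without DCKO 2. The bearing of these cells on the level of Fjx1 was not tested.

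The other 12 genes of the 22-gene signature are those left when the 10 were chosen with their values in view, so their counts are a description too. In edgeR 4 of the 12 were called higher, 0 lower and 8 were not called, beside a background of 8.93% called higher. The median log2 fold change of the 12 was 0.94. The genes called higher were Tgfb2, Ccdc80, Igfbp3 and Rbms3. They encode a TGF-beta ligand, a matrix protein, an IGF-binding protein and an RNA-binding protein, in that order. Tgfb2 had 7.31 and 9.05 CPM in Controls against 47.9 and 51.6 in DCKO (log2 fold change 2.60, SE 0.19, adjusted p 0.00602 in edgeR). Ccdc80 had 3.53 and 7.84 CPM in Controls against 53.5 and 64.2 in DCKO (log2 fold change 3.38, SE 0.41, adjusted p 0.0116 in edgeR). Igfbp3 had 10.1 and 4.54 CPM in Controls against 53.8 and 49.9 in DCKO (2.82, SE 0.40, adjusted p 0.0152 in edgeR). Control 1 and Control 2 differed for both: the log2 fold change of Ccdc80 was 2.90 without Control 1 and 4.03 without Control 2, and that of Igfbp3 was 3.50 without Control 1 and 2.33 without Control 2. Rbms3 had 8.56 and 6.78 CPM in Controls against 42.4 and 37.0 in DCKO (2.37, SE 0.21, adjusted p 0.00761 in edgeR).

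Of the 8 that were not called, Amotl2, the gene of an angiomotin that binds YAP, was the most spread between DCKO libraries. It had 84.8 and 90.9 CPM in Controls against 117 and 316 in DCKO, both above Control, and in edgeR its fold was 1.30 on the log2 scale (SE 0.46, adjusted p 0.106). Gadd45a, a stress response gene, had 2.64 and 2.88 CPM in Controls against 5.15 and 10.7 in DCKO (1.52, SE 0.42, adjusted p 0.0621). Nuak2, which encodes a kinase, had 79.1 and 69.2 CPM in Controls against 37.8 and 76.8 in DCKO, so that its groups overlapped. Asap1 and Foxf2 had log2 fold changes of 0.58 and 0.43 with groups that did not overlap, and Arhgef17, Dock5 and Lats2 had 0.05, 0.08 and 0.50 with groups that did. Leaving out Control 2, DCKO 1 or DCKO 2 in turn gave 3, 6 and 4 of the 12 called higher, with 1 lower in the last case, and DESeq2 with all libraries called 7 higher. The whole signature had 13 higher and 1 lower of 22, which includes the 10 genes chosen with their values known.

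**Figure D5:**
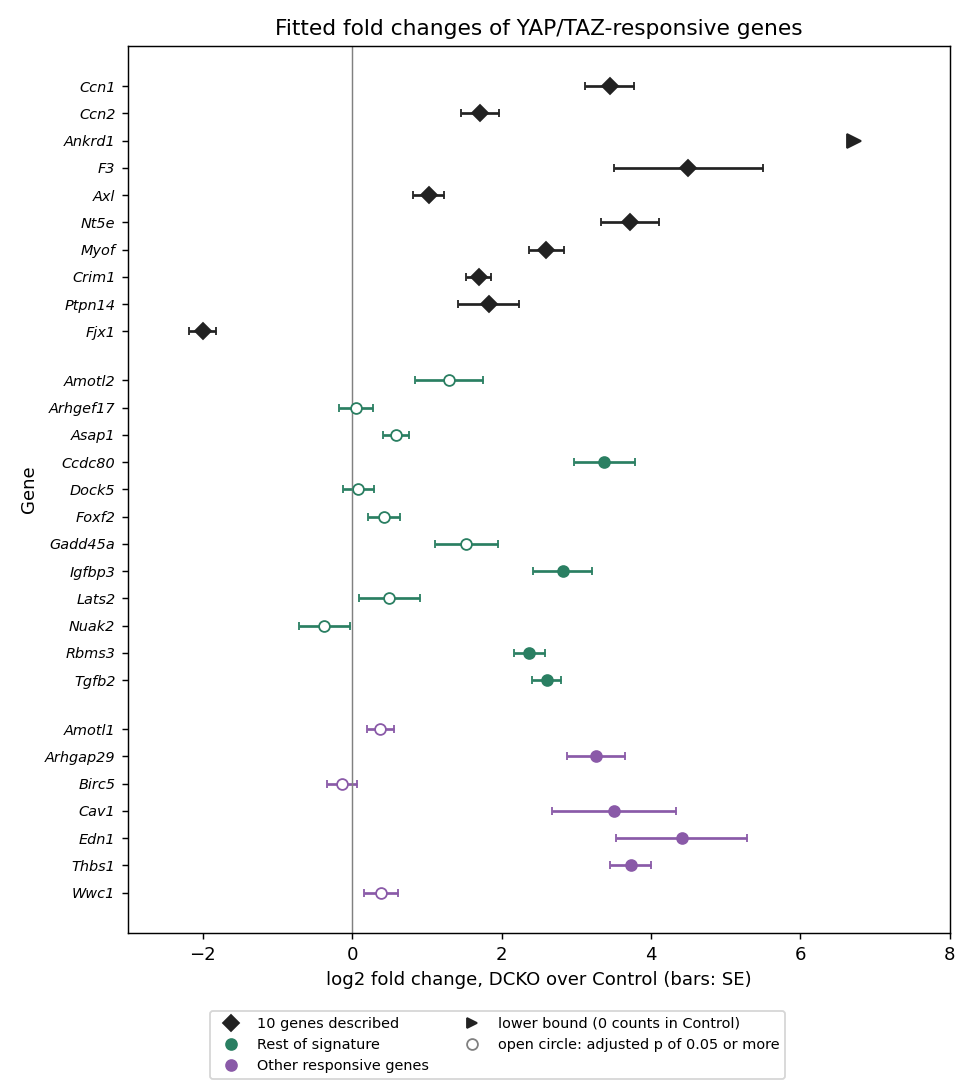
Fitted log2 fold change, DCKO over Control, with its SE, for the 10 genes (diamonds), the rest of the 22-gene signature (green) and other YAP/TAZ-responsive genes (purple). Open circles have an adjusted p of 0.05 or more, and the triangle of Ankrd1 is the log2 of its lower bound of 105. Of the green points, 4 are filled, and Nuak2 is the green point below 0.

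Among 8 other genes often described as YAP/TAZ-responsive, 4 were called higher and 0 lower in edgeR, and 1 was under the filter. Over the 7 tested, the median was 3.27 on the log2 scale. Thbs1, which encodes thrombospondin 1, had 53.7 and 53.8 CPM in Controls against 548 and 876 in DCKO. Arhgap29, which encodes a GTPase-activating protein, had 36.1 and 23.4 CPM in Controls against 202 and 370 in DCKO (3.27, SE 0.39, adjusted p 0.0108 in edgeR). Edn1, the gene of the endothelin 1 peptide, had 0.256 and 0.731 CPM in Controls against 4.17 and 16.7 in DCKO (4.41, SE 0.88, adjusted p 0.0294 in edgeR). Cav1, the gene of the caveolar coat protein, had 2.33 and 1.74 CPM in Controls against 39.3 and 7.04 in DCKO, highest in DCKO 1, unlike Edn1 and Thbs1. The log2 fold change of Cav1 was 4.26 without DCKO 2 and 1.78 without DCKO 1, and that of Edn1 was 3.82 or 5.30 with the first or the second Control library left out, and 5.09 or 3.09 with the first or the second DCKO library left out. Amotl1, Wwc1 and Birc5 had log2 fold changes of 0.38, 0.39 and -0.14 and did not pass, and Areg was under the filter on low counts. Without Control 1 and Control 2, 2 and 1 of these genes were called.

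The RNAs of the coactivators themselves did not pass the test. Yap1 had 169 and 139 CPM in Controls against 103 and 157 in DCKO (log2 change -0.24, SE 0.25, adjusted p 0.520 in edgeR). Wwtr1 had 68.7 and 62.2 CPM in Controls against 73.9 and 81.4 in DCKO (0.25, SE 0.16, adjusted p 0.320 in edgeR). Such a p does not show that the levels were equal. Of the 4 TEAD genes, Tead1 and Tead3 were called higher. Tead1 had 37.3 and 30.1 CPM in Controls against 60.8 and 76.6 in DCKO, and Tead3 had 9.05 and 9.21 against 22.3 and 23.9. Tead2, with the highest CPM of the 4, was lower in both DCKO libraries and did not pass. It had 173 and 196 CPM in Controls against 127 and 147 in DCKO (log2 fold change -0.43, SE 0.17, adjusted p 0.133 in edgeR). Tead4 was higher in both DCKO libraries and did not pass either (log2 fold change 1.98, SE 0.56, adjusted p 0.0641 in edgeR). Neither Tead1 nor Tead3 passed without Control 1 or without Control 2.

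The 10 genes were also set beside 45 relatives, ligands and receptors, of which 36 had enough counts to be tested. In edgeR 14 of the 45 were called higher and 1 lower, with 9 under the filter; leaving out Control 1, Control 2, DCKO 1 or DCKO 2 gave 3, 1, 17 and 19 higher. For the CCN proteins, the integrin and LRP1 genes Itgb1, Itgb5, Itga6 and Lrp1 were called higher, while Itgav and Itgb3 were not. Itgb1 had 224 and 181 CPM in Controls against 587 and 462 in DCKO, and Lrp1 had 169 and 148 against 562 and 390. Of the other CCN genes, Ccn4 was called higher, with 0.846 and 1.23 CPM in Controls against 5.02 and 27.7 in DCKO, and its log2 fold change was 3.98 with all libraries, 2.28 without DCKO 2 and 4.74 without DCKO 1. Ccn3 did not pass, with a log2 fold change of 1.57 and overlapping groups, and Ccn5 and Ccn6 were under the filter.

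Axl and its sister receptors went different ways. Tyro3, the neural member of the family, had 54.4 and 50.04 CPM in Controls against 15.05 and 22.3 in DCKO (log2 fold change -1.48, SE 0.23, adjusted p 0.0182 in edgeR). Mertk, which serves the uptake of dying cells, had 3.77 and 4.19 CPM in Controls against 14.6 and 8.69 in DCKO (1.55, SE 0.33, adjusted p 0.0339 in edgeR). Gas6, the gene of their ligand, had 4.998 and 5.69 CPM in Controls against 22.6 and 33.4 in DCKO (2.39, SE 0.27, adjusted p 0.00978 in edgeR). Pros1, the gene of protein S, had overlapping groups. None of Tyro3, Mertk and Gas6 passed without Control 1 or without Control 2.

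Of the partners of F3, Thbd, Tfpi and F2rl1 were called higher. Thbd, the gene of thrombomodulin and an endothelial anticoagulant, had 8.16 and 5.99 CPM in Controls against 56.2 and 38.9 in DCKO, and Tfpi, the gene of the tissue factor pathway inhibitor, had 4.70 and 4.17 against 24.2 and 13.7. Both were higher in DCKO 1 than in DCKO 2, whereas F3 was higher in DCKO 2. F2rl1, a protease-activated receptor gene, had 0.559 and 0.316 CPM in Controls against 3.97 and 6.82 in DCKO. Beside Nt5e, the gene Entpd1, whose product makes AMP from ATP, had 3.07 and 3.34 CPM in Controls against 10.05 and 7.23 in DCKO. The adenosine receptor gene Adora2a had 3.79 and 3.08 CPM in Controls against 27.3 and 13.9 in DCKO, and both were called higher. Among the cadherins of the Fjx1 system, Fat1 was called higher, with 281 and 283 CPM in Controls against 727 and 695 in DCKO. Fat2, a gene of epithelia, was called too, from 3 counts in Control 1, none in Control 2, and 206 and 168 in DCKO. Fat4 and Dchs1, the partners on which FJX1 is known to act, had log2 fold changes of 0.24 and -0.18 and did not pass.

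Relatives of Myof, Crim1, Ptpn14 and Ankrd1 did not pass in edgeR. The closest relative of Ptpn14, Ptpn21, had 14.7 and 15.3 CPM in Controls against 19.2 and 38.1 in DCKO (log2 fold change 0.93, SE 0.34, adjusted p 0.114 in edgeR). Dysf, the ferlin nearest to Myof, had 9.41 and 9.15 CPM in Controls against 19.5 and 11.3 in DCKO. Ankrd23 had at most 1.08 CPM in any library, and Ankrd2 was under the filter. Chrd and Kcp, whose products share the cysteine-rich repeats of CRIM1, had log2 fold changes of 0.68 and 1.65, and DESeq2 called 1 of the 4 genes of that kind.

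Several of these targets also respond to serum and to actin-driven SRF, and Ccn1 is known as an immediate early gene. Of 11 SRF target genes, 10 were called higher in edgeR and 0 lower, and the median was 2.96 on the log2 scale (6 without Control 1 and 4 without Control 2). Flna, Cnn2 and Tpm1, cytoskeletal genes, had the highest CPM, and Tpm1 had 64.2 and 62.2 CPM in Controls against 389 and 721 in DCKO. Of 14 immediate early genes, 1 of them under the filter, 6 were called higher and 1, Btg2, lower (2 higher without Control 1, 3 without Control 2 and 9 without DCKO 1). Their sums were 189 and 196 CPM in Controls against 246 and 388 in DCKO. Jun, with the highest CPM, had 56.9 and 57.3 CPM in Controls against 81.6 and 107 in DCKO (0.72, SE 0.19, adjusted p 0.0550 in edgeR). Both lists were higher in DCKO 2 than in DCKO 1 in their sums, as were Ccn1, Ccn2, Ankrd1 and F3, and their part in those levels was not tested.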

How the data were processed

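RNA from 4 embryos was sequenced as stranded libraries, per the labels' protocols. The authors deposited whole-number counts per Ensembl gene, TPM per gene, and a differential expression table whose log2 fold changes, p-values and FDR are theirs alone. Per the submitters' processing notes, R 3.3.2, limma 3.30.13, edgeR 3.16.5, StringTie and TopHat2 2.1.1 were used with mm10 or GRCm38, roles unstated; how counts were made is not given in the sources used here. Gene names and coordinates are GENCODE M21 on GRCm38; 54409 of 54532 IDs matched.

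Counts were fitted with edgeR 4.0.16 in R 4.3.3 (filterByExpr with a minimum count of 10 and total of 15, TMM, glmQLFit, group as the only term, 2 residual degrees of freedom, two-sided, Benjamini-Hochberg over 19207 genes). SEs were derived from the fold change and F statistic. TMM factors were 1.14, 1.12, 0.888 and 0.885. Alternatives used DESeq2 1.42.0, limma 3.58.1, other scalings, TPM and fewer libraries. On simulated data of 18624 genes for DCKO against Control, 97 genes were changed 4-fold and 95 were changed 2-fold. The test recovered 51.5% and 4.21% of these, with 5 false calls. The adjusted p depends on the share of genes changed, and 3274 genes were called in the data. These recoveries therefore do not carry over to the data. The embryos are separate by label, so p-values measure the spread between 2 embryos per group. The target genes and all lists were chosen with earlier results of these data known; 1 gene of the responsive list is not reported here. Named genes are the 10 targets, any gene of the signature and responsive lists, called relatives, and the 3 most abundant of other lists. Some uncalled relatives are named too, among them Itgav, Itgb3, Ccn3, Pros1, Fat4, Dchs1, Chrd and Kcp. Dysf, Tead4, Ptpn21, Ankrd23, Krt5, Krt14 and Tagln are further examples named after their values were seen.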

Additional observations from a re-analysis of the deposited data

How the results depend on the processing

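Under 14 alternatives, 0 of 138 values for the 10 target genes changed sign, which their separate groups made hardly possible, and 32 lost their call: 16 without a Control library, 10 on unfiltered TPM and 6 elsewhere. Those 6 included Axl with library totals, and Axl and Ptpn14 with a replicate block. Ankrd1 and F3 lost their calls in limma-voom, and Ankrd1 also on log2(TPM + 1) with a mean of at least 1. Leaving out single libraries gave 155 to 2619 genes higher and 72 to 2565 lower over the whole table. The range was 1 to 9 target genes higher and 0 to 1 lower, 3 to 6 of the rest of the signature higher and 0 to 1 lower, 1 to 4 responsive genes higher, and 1 to 19 relatives higher and 0 to 1 lower. A Control left out leaves the DCKO pair to set the spread, and the lone library is assumed to vary like it. The samples share a replicate number but no stated pairing (correlation of deviations -0.08). With a replicate block, 1002 genes were higher and 776 lower, and 7 target genes higher, with Axl and Ptpn14 uncalled. DESeq2 called 2602 higher and 2594 lower, and 7 of the rest of the signature higher. Library totals gave 1219 higher and 3744 lower, and 3 relatives lower. On log2(TPM + 1) with a mean of at least 1, 1007 were higher (median of all genes -0.19), and 958 on log2(TPM + 0.1). Unfiltered log2(TPM + 1) in limma called 0 genes of 30715 in either direction, in every list, with 6414 at an unadjusted p under 0.05. The cause of these shifts was not tested. Ankrd1 had 0 counts in Control and 26 in DCKO 1, so depth allows only a lower bound of its fold.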
